A study of Schizosaccharomyces pombe with 3 samples.

Results

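The array features described here are those named for meiosis and sporulation genes of fission yeast (Schizosaccharomyces pombe). They were chosen by name alone: a feature belongs if its name, after removal of the intergenic prefix, starts with meu, mei, spo, rec, mde or mug followed by a digit. This gave 56 of the 10240 named features on the arrays, of which 41 are intergenic features (of 5169) and 15 are open reading frame (ORF) features (of 5071), for 40 gene names. The rule itself uses no measured value, but members were chosen with earlier results of these data known. The meu names supplied 17 intergenic and 2 ORF features, the rec names 8 and 8, the mde names 7 and 1, the spo names 5 and 2 and the mei names 4 and 2. No feature carried a mug name. All 56 were matched by name to genes of the RefSeq annotation of the assembly ASM294v3. The features IGR-mde1 and IGR-mde3 are uncertain, because each was matched to a locus whose systematic name labels another intergenic feature of the array. RefSeq lists the product at the mde1 locus as 5'-methylthioribulose-1-phosphate dehydratase, an enzyme of methionine salvage. In the current annotation meu5 is called crp79, which encodes a poly(A)-binding protein, and meu8 is called atd3.

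All 3 arrays belong to 1 group. Cells carrying the corepressor subunit Tup11 fused to green fluorescent protein (GFP) were grown in rich YES medium to mid-log phase and crosslinked, chromatin was precipitated with an antibody against GFP, and amplified precipitate was hybridised against amplified input. The 3 precipitations came from separate experiments, and replicates 1 and 2 were hybridised to print batch E120D while replicate 3 was hybridised to print batch F060D. The sources used here do not give further alleles of the strain. No untagged strain, no starved or meiotic culture and no expression data were analysed here, so each ratio compares precipitate with input in 1 strain and 1 medium.

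Tup11 is a WD-repeat protein related to the budding yeast corepressor Tup1. It acts with Ssn6 and reaches genes through DNA-bound factors. In fission yeast, starvation for nitrogen and mating pheromone switch cells from growth to meiosis. The HMG-box factor Ste11 then activates mei2, whose RNA-binding product is needed for meiosis and is held inactive by the Pat1 kinase until Mei3 inhibits that kinase. The forkhead factor Mei4 later activates genes of the meiotic divisions and of spore formation, some of which are named mde for Mei4-dependent expression. The meu genes were collected as transcripts that rise in meiosis, the rec genes act in meiotic recombination and cohesion, and the spo genes are needed to form spores. Most of these genes are known to be little expressed in growing cells.

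Values are log2 ratios of precipitate over input, centred on the median of all features of an array, so that 0 is the array's middle. An upstream feature is the intergenic feature in front of its name-giving gene. Its coordinates are those of the whole gap between the neighbouring coding sequences or structural RNA genes, since the sources used here do not give the ends of the spotted PCR products. The scanner tables do not tie the channels to dyes. Taken as the ratio of B to A, the values of replicate 3 correlated with those of replicates 1 and 2 at r = -0.54 and -0.40 across 7727 and 4350 features, while replicates 1 and 2 correlated at 0.73 across 4245. The direction was therefore taken from the deposited value tables, which put the precipitate in channel B on replicates 1 and 2 and in channel A on replicate 3. This direction is likely and not certain, and the means with replicate 3 read by the same channel letters as the others are given as same-letters means. With the same letters no member feature passed the test in either direction, at an adjusted or an unadjusted p under 0.05 (limma). Both channels gave a signal for 7745 features on replicate 1, 4361 on replicate 2 and 9979 on replicate 3. The 64 spots of the control Ef1-b had mean centred ratios of -0.55, -0.77 and 0.71 on replicates 1 to 3. These were near those of the ef1-b ORF (-0.56, -0.96 and 0.52), while the intergenic feature of that gene had 3.31, 1.70 and 3.61.

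The regulatory sequence in front of the 4 genes whose upstream features passed the test and that have an annotated transcript start is shown here, because it is the annotated promoter end of the gaps in which the features lie. How much of it the spotted products cover is not known. Each sequence is the RefSeq sequence of the 250 bases before the annotated start, 5' to 3' on the gene's strand (ASM294v3), in lower case. They lie at chrII:719469-719718 on the plus strand for mei3, chrI:4515026-4515275 on the minus strand for mei2, chrII:1891844-1892093 on the minus strand for spo14 and chrIII:1870096-1870345 on the minus strand for meu10. Capitals mark copies of 5 short words searched on both strands: GTAAACA and GTAAATA (the FLEX element bound by Mei4), TTCTTTGTT (the TR box bound by Ste11), TGACGT (the cAMP response element of the Atf1 family) and ACGCGT (the MCB element of the cell cycle factor MBF).
mei3: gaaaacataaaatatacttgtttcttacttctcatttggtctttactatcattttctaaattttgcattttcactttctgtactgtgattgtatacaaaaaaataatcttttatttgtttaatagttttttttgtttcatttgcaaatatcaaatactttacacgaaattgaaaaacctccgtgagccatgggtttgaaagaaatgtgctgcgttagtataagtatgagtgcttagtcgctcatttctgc
mei2: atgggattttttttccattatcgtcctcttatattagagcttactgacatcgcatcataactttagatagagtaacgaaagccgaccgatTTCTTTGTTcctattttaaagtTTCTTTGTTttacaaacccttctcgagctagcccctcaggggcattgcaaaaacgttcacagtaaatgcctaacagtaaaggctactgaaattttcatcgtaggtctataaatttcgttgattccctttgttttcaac
spo14: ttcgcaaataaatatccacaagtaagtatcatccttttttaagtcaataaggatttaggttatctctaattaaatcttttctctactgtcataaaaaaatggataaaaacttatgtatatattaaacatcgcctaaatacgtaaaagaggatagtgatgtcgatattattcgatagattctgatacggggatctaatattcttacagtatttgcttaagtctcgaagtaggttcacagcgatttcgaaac
meu10: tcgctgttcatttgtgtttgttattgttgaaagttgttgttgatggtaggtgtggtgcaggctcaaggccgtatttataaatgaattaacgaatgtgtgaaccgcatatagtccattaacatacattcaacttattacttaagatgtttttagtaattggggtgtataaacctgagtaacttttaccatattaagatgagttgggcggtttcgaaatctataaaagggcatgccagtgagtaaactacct
The mei2 window holds TTCTTTGTT at 160 and at 138 bases before the start. This word was present in 1.63% of the 3321 windows of full length in the genome. The windows of mei3, spo14 and meu10 hold none of the 5 words, which says only that these letters are not in these 250 bases.

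For genes without an annotated leader the window ends at the start codon and may hold transcribed sequence, so only the words with 10 bases on each side are shown. They come from 4 rec and meu genes whose ratios are given below, and other members that hold such words are named after the sequences. The positions are chrI:1083483-1083509 (minus) for meu31, chrIII:1549149-1549175 and chrIII:1549086-1549111 (minus) for rec7, chrI:1772893-1772918 (plus) for rec12, and chrII:2568879-2568904 and chrII:2568908-2568933 (plus) for rec8.
meu31: gatggaaattTGTTTACattttaatta
rec7, FLEX word: actcataaatGTAAACAaaagtaatac
rec7, MCB word: gttcagtctaACGCGTcttctcatat
rec12: agaatgctgaACGCGTccagaaagta
rec8, distal: tataattttgACGCGTttaataagct
rec8, proximal: tggtgaactaACGCGTtcctgtcttt
In the meu31 window GTAAACA lies on the opposite strand and reads TGTTTAC. Across the 23 member genes with a full window, GTAAACA was present in 11 windows, namely those of crp79, mde4, meu14, meu17, meu25, meu26, meu31, meu7, rec11, rec7 and spo4 (47.8% of member windows against 15.45% of all windows). ACGCGT was present in 6, those of meu13, meu26, rec11, rec12, rec7 and rec8 (26.1% against 2.65%). GTAAATA was present in 5 (21.7% against 14.6%), TTCTTTGTT only in mei2, and TGACGT only in spo20 (5.72% of all windows). Of the 23 member windows 13 end at a start codon, against 452 of all 3321. Among windows of that kind GTAAACA was in 9 of 13 member windows and 15.71% of all, and ACGCGT in 5 of 13 and 3.76%. These are counts of letters and not of bound sites. Of the genes with GTAAACA, meu31 had an upstream feature that passed the test above, rec7 an ORF feature that passed above and meu26 an ORF feature that passed below.

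The member features were measured on few arrays. All 41 upstream members gave a ratio on replicate 3, 26 on replicate 1 and 6 on replicate 2. The ORF members gave 15, 12 and 6. Only 6 upstream members (14.6%) were measured on all 3 arrays, against 29.6% of all upstream features, and 4 ORF members (26.7%), against 53.4% of all ORF features. The input channel was at 0 with a signal in the precipitate for 13 upstream members on replicate 1 (31.7%, against 25.3% of all upstream features) and for 26 on replicate 2 (63.4% against 49.2%), and for 0 on replicate 3. Such features have no ratio on those arrays. For this reason the counts below are given for features measured on all 3 arrays and, as a setting added after seeing the data, for features measured on 2 or more.

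Over the whole set, the upstream members differed from other upstream features by less than the spread between arrays. Their median ratio was 0.66 on replicate 1, 0.52 on replicate 2 and -0.02 on replicate 3, against 0.50, 0.50 and 0.15 for all other upstream features. The difference was 0.00 ± 0.17 (SD, n = 3 arrays). It was positive on replicates 1 and 2 and negative on replicate 3, so its sign was not shared by the arrays. The medians rest on 26, 6 and 41 upstream members, so this SD also holds the change of members between arrays. The same applies to the ORF members, with 12, 6 and 15. On replicate 3, where all were measured, 14 of 41 lay above the median of upstream features. The ORF members had medians of -0.20, 0.06 and -0.15, against -0.48, -0.28 and -0.12 for other ORF features, a difference of 0.20 ± 0.20 (n = 3 arrays). Here too the print batches differed: the 2 arrays of E120D gave 0.31 and the array of F060D gave -0.035. For the upstream features the same batches gave 0.09 and -0.17. An exact sign-flip test over 3 arrays cannot go under p = 0.25, so no p is given.

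**Figure D1:**
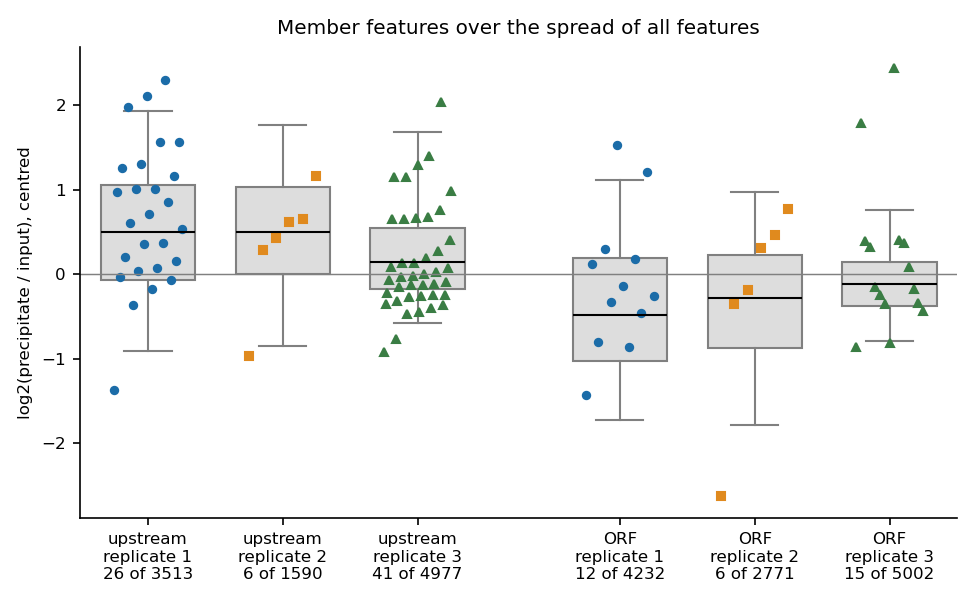
Centred log2 ratios of precipitate over input for the member features (points) by array, over all features of the same kind (boxes from the 25th to the 75th percentile with the median, whiskers from the 5th to the 95th), with the numbers of members and of all features below each box. Most points fall inside the boxes and whiskers, and on replicate 3 the highest points are mei3 upstream at 2.04 and the mei3 ORF at 2.43.

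In the limma fit, 2 of the 6 upstream members measured on all 3 arrays passed at an adjusted p under 0.05, both above the array median, where 22.7% of all such upstream features passed above. The 2 were mei2 and spo14. None passed below, with 1 at an unadjusted p under 0.05 (meu1), where 2.09% of upstream features passed below. Of the 26 measured on 2 or more arrays, 5 passed above (mei3, meu31, meu10, spo14 and mei2) and 0 below, with 7 above and 1 below at an unadjusted p under 0.05, where 16.0% of upstream features passed above and 0.844% below. Of the 4 ORF members on all 3 arrays, 1 passed above (mei3) and 0 below (0 below at an unadjusted p), where 2.44% of ORF features passed above and 17.0% below. Of the 14 on 2 or more arrays, 2 passed above (mei3 and rec7) and 2 below (rec8 and rec14), where 2.42% passed above and 9.99% below. With an undetected channel set to the 1st percentile none of these 9 features passed under the same requirement on arrays (limma adjusted p of 0.0931 or more). Upstream of mei3, then with a value on all 3 arrays, the feature passed among those on all 3 (mean 1.70, limma adjusted p = 0.0348). With the deposited values none of the 7 that could be tested passed (limma adjusted p of 0.109 or more). The deposited values follow mainly 1 channel, so they cannot check a ratio of precipitate over input. The fit used a standard error shared by all features, 0.35 for 3 arrays, and 0.34 and 0.42 for 3 and 2 arrays in the setting with 2 or more. A p-value here thus says nothing of how far a single feature varied between arrays; the SD does.

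By the rank rule of the labels' protocol, a feature was put on the binding list if its median percentile over the arrays reached 85. On all 3 arrays this took in 2 of 6 upstream members (mei2 and spo14) and 1 of 4 ORF members (mei3), where it took in 24.3% of upstream and 2.44% of ORF features. With 2 or more arrays it took in 7 of 26 upstream members, adding mei3, meu31, meu10, mei4 and the second mei2 feature, and 2 of 14 ORF members, mei3 and rec7, where it took in 21.0% and 3.1%. On single arrays, 8 of 26, 1 of 6 and 11 of 41 upstream members lay at or over the 85th percentile of replicates 1 to 3, against 25.9%, 30.5% and 22.9% of all upstream features. For ORF members the counts were 2 of 12, 0 of 6 and 2 of 15, against 5.93%, 6.13% and 7.14%.

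On replicates 1 and 3 the genes of entry into meiosis had the highest median upstream ratio of the role groups, 1.16 and 0.95. Their 4 upstream features (2 of them in the mei2 gap) all lay at or over the 85th percentile on replicate 3, and 2 of 4 did on replicate 1. mei3 encodes the small inhibitor of the Pat1 kinase that starts meiosis in diploid cells. Its upstream feature (chromosome II, 718767 to 719805, 1039 bp, with cmt1 on the other side) had ratios of 2.30 on replicate 1 and 2.04 on replicate 3, and no ratio on replicate 2, where only the precipitate gave a signal. Both values were the highest of all upstream members on their array. The mean was 2.17 ± 0.19 (SD, n = 2; limma adjusted p = 1.32e-05, same-letters mean 0.13). The mei3 ORF feature (447 bp of coding sequence, chromosome II, 719806 to 720252) had 1.21, 0.46 and 2.43 on replicates 1 to 3. It was above 0 on all 3 arrays, with replicate 3 far above replicate 2. Its mean was 1.37 ± 1.00 (n = 3; limma adjusted p = 0.00141, same-letters mean -0.26). The call was lost without replicate 1 (mean 1.45, adjusted p = 0.161), without replicate 3 (mean 0.83, adjusted p = 0.0733) and with a trend in limma's prior (adjusted p = 0.0573). With that trend the ORF feature did pass among features on 2 or more arrays (limma adjusted p = 0.0346). The upstream feature exceeded the ORF by 1.09 on replicate 1 and lay 0.40 below it on replicate 3 (difference -0.40), so their order changed between arrays.

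The mei2 gap is the longest of all member gaps (chromosome I, 4513293 to 4517541, 4249 bp), and it is shared with omt2, which is transcribed the other way. The mei2 upstream feature had 1.30, 0.62 and 1.14 on replicates 1 to 3, above the array median each time. Its mean was 1.02 ± 0.35 (n = 3; limma adjusted p = 0.0224, same-letters mean 0.26). Without replicate 1 the mean was 0.88 and did not pass (limma adjusted p = 0.407). A second mei2 feature of this long gap had 1.01 and 0.76 on replicates 1 and 3, a mean of 0.89 ± 0.18 (n = 2; limma adjusted p = 0.148), and the feature named for omt2 had 0.57 on replicate 3, the only array that measured it. All values from this gap were positive, and on the arrays that measured both, the first mei2 feature was the higher. The mei2 ORF lay lower, with 0.12 on replicate 1 and 0.40 on replicate 3. For mei4, the forkhead factor gene, the upstream feature (567 bp) had 1.00 on replicate 1 and 0.65 on replicate 3, a mean of 0.83 ± 0.25 (n = 2) that did not pass (limma adjusted p = 0.185). No ORF feature was matched to mei4.

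**Figure D2:**
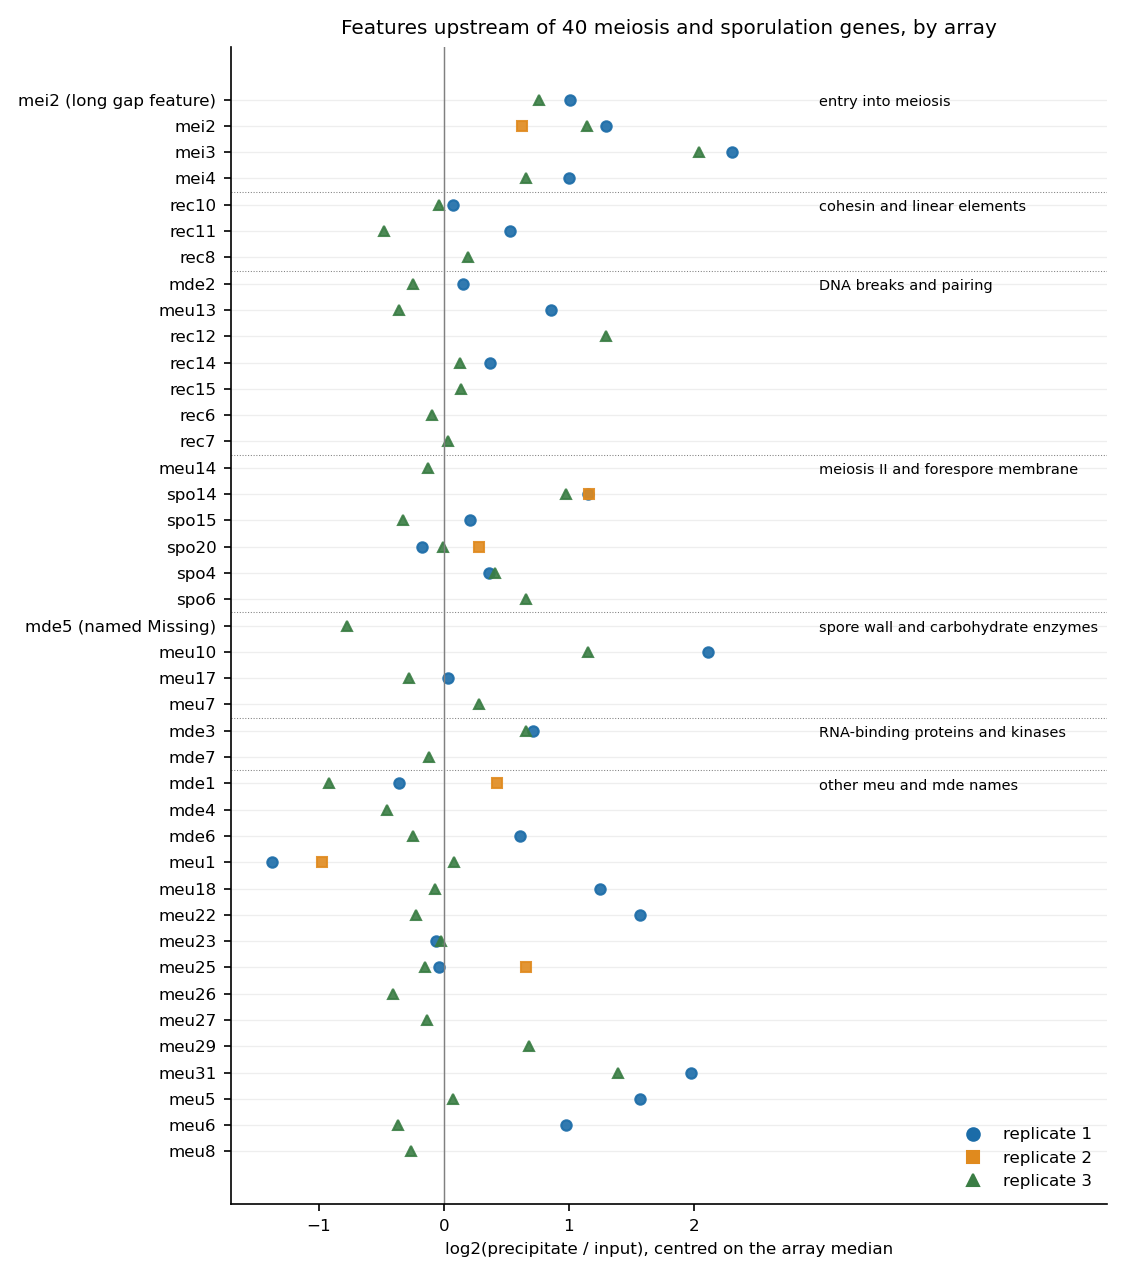
Centred log2 ratio of each of the 41 upstream member features on replicate 1 (circles), replicate 2 (squares) and replicate 3 (triangles), grouped by the known role of the gene. The features of mei3, meu31, meu10, mei2 and spo14 lie to the right of 0 on every array that measured them, and meu1 lies furthest to the left, at -1.37 on replicate 1.

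No upstream feature of the meiotic cohesin and linear element genes passed the test, and 1 of the 3 was measured on replicate 3 only. rec8 encodes the kleisin subunit of meiotic cohesin, rec11 its SA-type (STAG) partner and rec10 a protein of the linear elements, structures along meiotic chromosomes. Upstream of rec10 the ratios were 0.08 on replicate 1 and -0.03 on replicate 3, upstream of rec11 they were 0.53 and -0.47, and upstream of rec8 the only value was 0.19, on replicate 3. The rec10 values were close to the array median, and those of rec11 lay on opposite sides of it. The rec8 ORF was the lowest ORF member, with -2.63 on replicate 2 and -0.81 on replicate 3 (mean -1.72 ± 1.29, n = 2; limma adjusted p = 0.00103, same-letters mean -0.91). Its spots on replicate 1 were left out, because they carried a quality flag or had no signal. The 2 values differ widely. The call was lost with loess (mean -1.42, limma adjusted p = 0.0664) and in the fit without replicate 1 (adjusted p = 0.0746). It was also lost with an undetected channel at the 1st percentile (mean -2.40, limma adjusted p = 0.0931). The deposited values gave a mean of 0.67 (limma adjusted p = 0.84), but they follow mainly 1 channel and do not check this ratio. The rec10 ORF had -0.33 and -0.25 on replicates 1 and 3, and the rec11 ORF 0.77 and -0.35 on replicates 2 and 3, with opposite signs.

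Most upstream features of the genes for meiotic DNA breaks and pairing were also near the middle of the arrays. Rec12 is the fission yeast Spo11, the protein that cuts DNA to start recombination, and Rec6, Rec7, Rec14, Rec15 and Mde2 are its partners, while meu13 encodes the Hop2 pairing factor. Upstream of rec12 the ratio was 1.29 on replicate 3, the only array with an input signal, and a gene for isoleucine tRNA lies on the other side of that 555 bp gap. This was the one of these 7 upstream features at or over the 85th percentile on replicate 3. The other 6 lay between -0.36 (meu13) and 0.14 (rec15) there. On replicate 1, 3 of the 7 were measured, at 0.16 for mde2, 0.37 for rec14 and 0.86 for meu13. None of the 3 that could be tested passed.

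Within this group the ORF features differed more than the upstream features. The rec7 ORF (1020 bp of coding sequence, chromosome III, 1547888 to 1549069) had 1.53 on replicate 1 and 1.79 on replicate 3, at percentiles 94.3 and 97.3 of all features. The mean was 1.66 ± 0.18 (n = 2; limma adjusted p = 0.00168, same-letters mean -0.13). The feature upstream of rec7 had only 0.03 on replicate 3, so the ORF lay 1.76 above it (upstream minus ORF -1.76), the largest such gap in that direction among the members on that array. The other feature in the same 934 bp gap, named for tol1, had 2.07 on replicate 1 and 0.36 on replicate 3. The rec14 ORF, for a WD-repeat protein related to Ski8, went the other way, with -1.43 on replicate 1 and -0.86 on replicate 3 (mean -1.14 ± 0.40, n = 2; limma adjusted p = 0.0471, same-letters mean -0.28). This call was lost when the arrays were centred on shared features (mean -0.91, limma adjusted p = 0.228) and with loess (-0.80, 0.137). It was also lost with a trend in limma's prior (adjusted p = 0.109), in the fit without replicate 2 (0.0697) and with an undetected channel at the 1st percentile (-0.40, 0.725). The deposited values, which follow mainly 1 channel, gave a mean of -0.31 (limma adjusted p = 0.795). The upstream feature of rec14, at 0.37 and 0.13, exceeded its ORF by 1.80 and 0.99 on those arrays. The ORF features of rec15 (0.18, -0.35 and 0.40 on replicates 1 to 3), rec6 (-0.26 and -0.36 on replicates 1 and 3), meu13 (-0.13 and 0.32 on the same arrays) and rec12 (0.37 on replicate 3) had smaller ratios. Among ORF features of replicate 3, rec15, meu13 and rec12 still stood at percentiles 88.08, 84.99 and 86.95, and rec6 at 26.75.

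Among the genes of meiosis II and the forespore membrane, spo14 was the one member whose upstream feature passed. Spo14 is a guanine nucleotide exchange factor of vesicle transport needed to build the forespore membrane. Its upstream feature (chromosome II, 1891657 to 1893155, 1499 bp, shared with mcs2) had 1.16, 1.16 and 0.98 on replicates 1 to 3, the closest agreement of the 6 upstream members measured on all arrays. The mean was 1.10 ± 0.10 (n = 3; limma adjusted p = 0.0126, same-letters mean 0.45). The call was lost without replicate 1 (mean 1.07, adjusted p = 0.262), without replicate 2 (mean 1.07, adjusted p = 0.098) and with loess (mean 0.70, adjusted p = 0.116). The spo14 ORF had -0.80, 0.31 and 0.08 on the same arrays and a mean of -0.14 ± 0.59. The feature in this gap named for mcs2 had 0.28 on replicate 3. Of the other genes, spo4 encodes a kinase needed for meiosis II, with 0.36 and 0.41 upstream on replicates 1 and 3 and -0.86, -0.19 and -0.15 in the ORF on replicates 1 to 3. spo6, which encodes the regulatory subunit of that kinase, had 0.65 upstream on replicate 3. spo20, which encodes a Sec14-type lipid transfer protein, had -0.18, 0.28 and -0.0033 upstream. spo15, for a spindle pole body protein, had 0.21 and -0.32, and meu14, for a protein of the leading edge of the forespore membrane, had -0.12 on replicate 3 only.

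For the spore wall and carbohydrate enzymes the values were mixed. meu10 encodes a cell surface protein with a GPI anchor that is needed for the spore wall. Its upstream feature (chromosome III, 1869731 to 1871749, 2019 bp, shared with cbf12) had 2.11 on replicate 1 and 1.15 on replicate 3, with a mean of 1.63 ± 0.68 (n = 2; limma adjusted p = 0.00209, same-letters mean 0.48). The feature named for cbf12, a CSL-family transcription factor gene, had 1.16 and 1.81 on these arrays, so both features of the gap were above the median and each was the higher one once. The other 3 genes of this group encode enzymes acting on glucans or starch-like polymers. The meu17 feature had 0.04 and -0.28 on replicates 1 and 3, the meu7 feature 0.28 on replicate 3, and the feature named mde5Missing -0.77 on replicate 3. The word Missing stands in 231 feature names, 39 of which gave a ratio on replicate 3, and the sources used here do not give its meaning.

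The features upstream of mde3, a protein kinase gene, and mde7, an RNA-binding protein gene, had 0.66 and -0.12 on replicate 3. The mde3 feature also had 0.71 on replicate 1 and did not pass (mean 0.69 ± 0.04, n = 2; limma adjusted p = 0.297), and the mde7 feature, measured on 1 array, was not tested. Among the 15 other meu and mde names, 1 of the 10 testable upstream features passed above, where 16.0% of all upstream features did. This was meu31 (chromosome I, 1083392 to 1084174, 783 bp, shared with sle1), with 1.98 on replicate 1 and 1.39 on replicate 3, a mean of 1.69 ± 0.41 (n = 2; limma adjusted p = 0.00135, same-letters mean 0.29; adjusted p = 0.0677 with loess). Several others were high on replicate 1 alone. Upstream of meu22, an amino acid permease gene, the values were 1.57 and -0.22 on replicates 1 and 3, upstream of meu5 (crp79) they were 1.57 and 0.07, and upstream of meu18 they were 1.25 and -0.07. In this group only meu1, mde1 and meu25 were measured on all 3 arrays. The meu1 feature had -1.37, -0.97 and 0.08 on replicates 1 to 3 (mean -0.75 ± 0.75, limma adjusted p = 0.107). The mde1 feature had -0.36, 0.43 and -0.92, and the meu25 feature -0.04, 0.65 and -0.15. The values of all of them changed sign between arrays. Features measured on fewer than 3 arrays are named here after their values were seen, since the rule for naming covered features measured on all 3.

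The ORF of a member gene is in many cases on the array under its systematic name and so outside the naming rule. There were 22 such ORF features. Of the 20 measured on 2 or more arrays, 2 passed above and 4 below in limma, where the whole array gave the 2.42% and 9.99% quoted above. The meu10 ORF had 1.44, 0.61 and 2.42 on replicates 1 to 3 (mean 1.49 ± 0.90, n = 3; limma adjusted p = 4.22e-04), so ratios above the median were present on both sides of the meu10 start. The meu29 ORF had 5.59 on replicate 1 and -0.27 on replicate 3 (mean 2.66 ± 4.15, n = 2; limma adjusted p = 3.41e-08), so its call is carried by the value of replicate 1. The ORF features of spo6 (-1.52, -2.08 and 0.11), mde2 (-1.25, -1.58 and -0.24), mde3 (-1.74, -1.01 and -0.12) and meu26 (-1.25, -0.95 and -0.57) passed below. Same-letters means were -0.12 for the meu10 ORF and 2.93 for the meu29 ORF. For spo6, mde2, mde3 and meu26 they were -1.24, -0.86, -0.88 and -0.54. In each of these 4 the value on replicate 3 was the nearest to 0 or above it. All ORF features were less spread on that array, with a 5th percentile of -0.79 against -1.72 and -1.78 on replicates 1 and 2. By percentile among all features, spo6, mde2 and mde3 were also higher on replicate 3 than on the other arrays. The meu26 ORF was lower there, at 8.6 against 9.67 and 15.59.

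**Figure D3:**
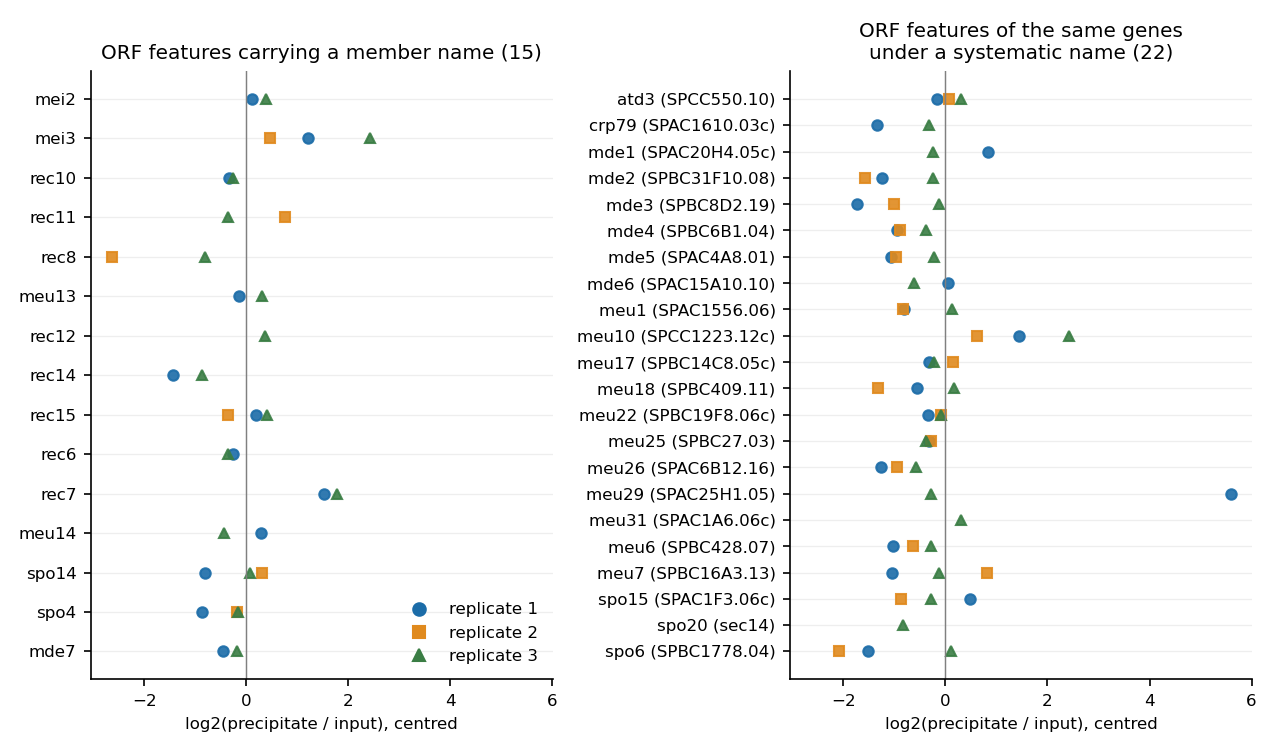
Centred log2 ratio of the 15 ORF features with a member name (left) and of the 22 ORF features of the same genes under a systematic name, given in brackets (right), on replicate 1 (circles), replicate 2 (squares) and replicate 3 (triangles). mei3, rec7 and meu10 lie to the right of 0 on every array that measured them, and the meu29 point at 5.59 comes from replicate 1 alone.

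When each upstream feature was set against the ORF of the same gene, the centring of the array cancelled. The upstream feature was the higher in 17 of 20 member genes on replicate 1, in 2 of 3 on replicate 2 and in 20 of 37 on replicate 3, against 80.0%, 76.6% and 71.9% of other genes. The median difference was 1.13, 0.86 and 0.17, against 0.96, 0.81 and 0.31 in other genes. The member value was above that of other genes on replicates 1 and 2 and below it on replicate 3. Only spo14 had both features under a member name on all 3 arrays. Its differences were 1.96, 0.86 and 0.90 (mean 1.24 ± 0.62, n = 3; limma adjusted p = 0.0284), where 34.3% of 734 genes passed in this direction. Of the 7 member genes with both features on 2 or more arrays, 0 passed in limma in either direction and 2 had an unadjusted p under 0.05 with the upstream feature higher, where 2.08% of 2698 genes passed upstream higher and 0.0% the other way.

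**Figure D4:**
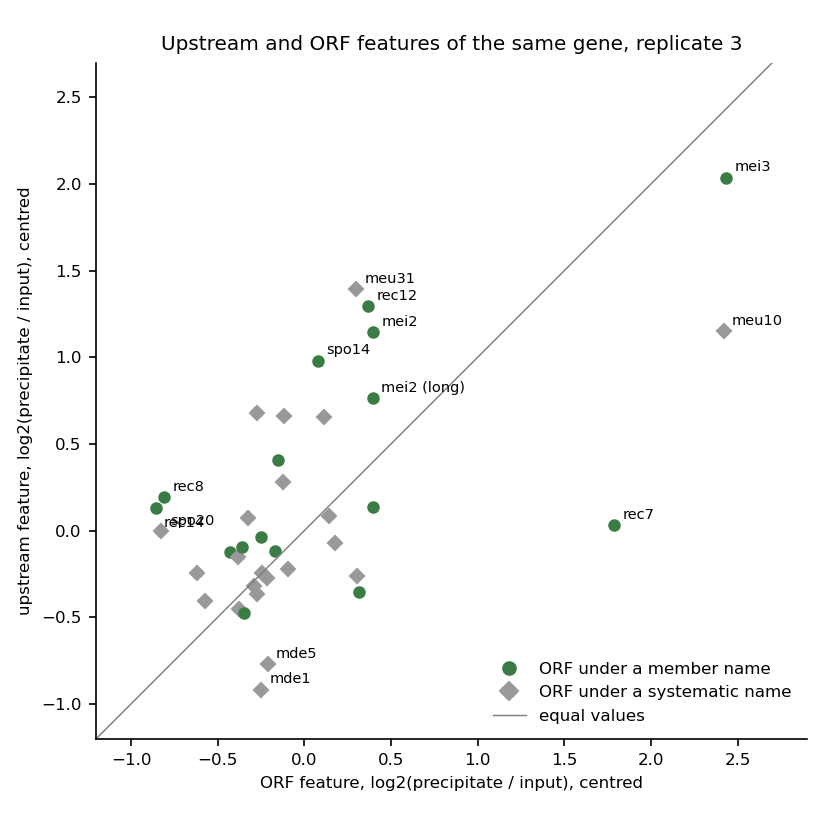
Upstream feature (vertical axis) against ORF feature (horizontal axis) of each member gene on replicate 3, both as centred log2 ratios, with circles for ORFs under a member name, diamonds for ORFs under a systematic name and a line of equal values. mei3 is high on both axes, rec7 and meu10 lie below the line, and meu31, rec12, mei2 and spo14 lie above it.

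Some gaps carry more than 1 feature, and such pairs show how alike the features of a gap were. There were 27 pairs, of which 24 had both values on replicate 3. In 24 of the 27 the features are named for both neighbouring genes, and in 3 (the mei2, mde1 and mde3 gaps) both are matched to the same gene. On replicate 3 the mde1 feature had -0.92 beside 0.17 for the other feature matched to mde1. The mde3 feature had 0.66 beside 0.15 for the other feature matched to mde3. On replicate 1 the mde3 pair had 0.71 and 1.11, so their order changed between arrays. Pairs with both features high were the first and second mei2 features, and meu10 and cbf12 (values above). Others were meu31 and sle1 with 1.39 and 0.85 on replicate 3, and spo6 and SPBC1778.03c with 0.65 and 1.51. The SPBC1778.03c feature also had 1.38 on replicate 1 and passed (limma adjusted p = 0.00767). In other gaps only the neighbour's feature was high on replicate 3. The meu17 feature had -0.28 beside 1.23 for the actin-related complex gene arc1 (feature sop2), and the meu22 feature had -0.22 beside 0.86 for mcs6 (feature crk1). The mde7 gap of 3081 bp had -0.12 for mde7 and 0.91 for SPCC320.08, while a further feature of that gap, also named for SPCC320.08, had 0.23. The mde6 and pun1 features were both at -0.24.

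**Figure D5:**
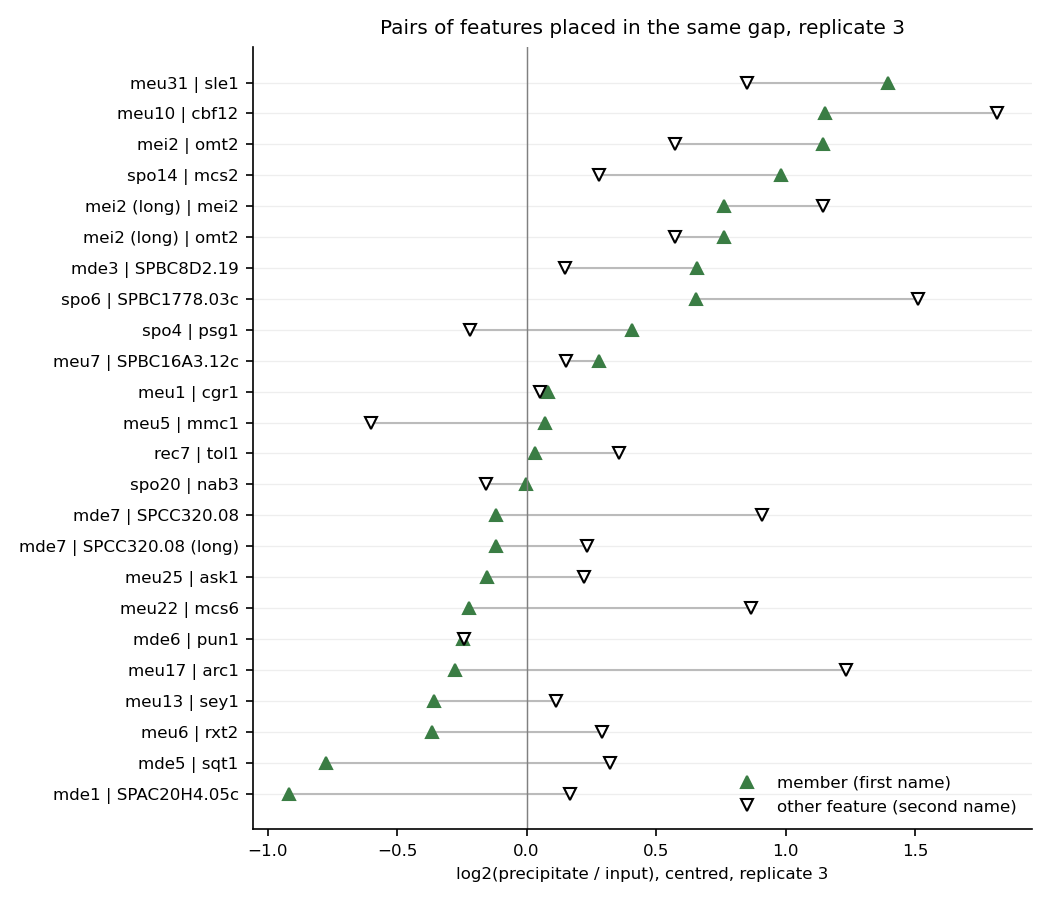
Centred log2 ratios on replicate 3 of the 24 pairs of features placed in the same gap, with a filled triangle for the member (first name) and an open triangle for the other feature (second name), ordered by the member's value. The distance is largest for meu17 and arc1, at -0.28 and 1.23, and in the mde6 and pun1 pair the symbols overlap.

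The gaps of the upstream members were close to those of other upstream features in median length and base composition. Their median length was 848 bp (132 to 4249 bp), against 852 bp for the other 4651 upstream features with coordinates and a value on replicate 3, and their median GC content was 30.19% against 31.22%. The neighbouring gene was transcribed away from the gap in 58.5% of members (divergent) and in 54.4% of others. Across the 41 members the replicate 3 ratio had a Spearman rho of 0.167 with gap length and 0.267 with GC content, against 0.282 and 0.153 across the others. These are correlations across features of 1 array and features are not replicates. Of the 15 members with gaps of 1000 bp or more, 6 lay at or over the 85th percentile of replicate 3 (against 33.0% of other such features). Of the 26 with shorter gaps, 5 did (against 15.3% of the others).

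Other genes of the same pathway that the naming rule does not catch were counted from a list of 43, of which 39 were on the arrays. Of their 22 upstream features measured on 2 or more arrays, 6 passed above and 0 below in limma, where 16.0% of all upstream features passed above. The highest was upstream of isp3, which encodes a protein of the spore surface, with 2.57 on replicate 1 and 2.66 on replicate 3 (limma adjusted p = 6.25e-08, same-letters mean -0.05). It was followed by fkh2, a forkhead factor gene, with 2.56 and 1.23, and by bqt1, whose product gathers telomeres in meiotic prophase, with 1.88 and 1.30. mcp7, a gene of meiotic recombination, had 1.35, 0.69 and 2.08 on replicates 1 to 3, and atf21, for a factor of the Atf1 family, had 1.71, 1.04 and 1.20. The sso1 feature, matched to the syntaxin gene psy1 of the forespore membrane, had 1.19 and 1.36 on replicates 1 and 3. Of 32 ORF features 1 passed above and 0 below, that of ssm4, which encodes a dynactin subunit of the microtubule motor that moves the nucleus in meiotic prophase, with 1.37, 1.35 and 1.98.

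Features that carry a systematic name on the arrays but whose gene is now named mug, meu, spo, rec or mde were not members either. There were 101 such genes with an upstream feature, 86 of them mug genes, a name given for meiotically upregulated genes. Among the 101 were mde1 and mde3, to which the member features IGR-mde1 and IGR-mde3 were matched as well. Of 70 upstream features measured on 2 or more arrays, 18 passed above and 0 below in limma, where 16.0% of all upstream features passed above. The highest was upstream of mug24, for an RNA-binding protein, in a gap shared with hmt1, with 3.14, 1.64 and 3.9985 on replicates 1 to 3. The spo5 upstream feature, for an RNA-binding protein needed for meiosis II, varied little, with 1.39, 1.41 and 1.44 (mean 1.41 ± 0.03, n = 3; limma adjusted p = 8.99e-04, same-letters mean 0.45). Of 82 ORF features, 8 passed above and 7 below, where 2.42% and 9.99% of ORF features passed. Their median ratio on replicate 3 was 0.24 upstream and -0.02 in the ORFs, against the medians of 0.15 and -0.12 over all upstream and ORF features.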

How the data were processed

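Tup11-GFP precipitate and input were measured on 3 two-colour arrays of fission yeast, 1 group. The authors' deposited scanner tables give linear intensity per spot: integrated signal less local background from TIGR Spotfinder, per the file headers. The deposited value tables hold log10 values scaled by the authors to the 50th percentile in GeneSpring with flagged values removed, per the labels' protocols, and use -2 for a missing value. They carry ORF and intergenic names exchanged relative to the scanner tables. On replicate 3 they follow channel A closely (r = 0.97 in a regression on both channels); on replicates 1 and 2 they follow channel B loosely (0.69 and 0.57), so their scale, and what they hold there, is not settled. In that regression the slopes of the deposited values on channels A and B were -0.14 and 1.11 on replicate 1 and -0.22 and 0.86 on replicate 2. On replicate 3 they were 1.08 and -0.10. The deposited values thus follow mainly 1 channel and do not behave as a ratio of the 2 channels. The genome build used to design the arrays is not given in the sources used here.

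From the intensities, spots with signal in both channels were kept (14400, 7363 and 20324 of 22176 on replicates 1 to 3), after leaving out 98, 105 and 16 spots with the quality flag S. log2 of precipitate over input was averaged over spots of a feature and centred on the median of all features of the array, with no loess. Direction was taken as the channel the value tables follow. limma 3.58.1 in R 4.3.3 tested each feature's mean against 0 over the whole table, with Benjamini-Hochberg adjustment and a threshold of 0.05, and was tested on simulated data. Names were matched to RefSeq (ASM294v3; 9707 of 10240 features, 94.8%). Windows of 250 bases before annotated gene starts, cut at the neighbouring gene, were searched for words. The genes named in the text were to be role-listed members on all 3 arrays, plus the highest and lowest upstream and ORF features and differences among them; other members are named after their values were seen. Members and lists were chosen with earlier results of these data known. Nothing beyond separate experiments is recorded of the replicates, so p-values rest on the spread between these arrays, pooled over all features. Alternatives were the reading of replicate 3 with the same letters, each replicate left out, centring on shared features, loess (span 0.4), an undetected channel set to the 1st percentile, leaving out inputs under the 10th percentile, print batch, a trend in limma's prior, a stricter binding list and the deposited values. The number of arrays limits the precision.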

Additional observations from a re-analysis of the deposited data

How the results depend on the processing

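Where replicate 3 took the same channel letters as the others, 0 upstream and 0 ORF members passed (all 3 arrays, or 2 or more), 1 member was on the binding list under either requirement, and the rec7 and mei3 ORF means turned to -0.13 and -0.26. Turning 1 array's sign removes by construction part of what the 3 arrays share. The deposited values follow mainly 1 channel, so the results given for them below do not check the ratio. On all 3 arrays, against 2 upstream and 1 ORF member above, loess gave 1 upstream, an undetected channel at the 1st percentile 1 and 0, leaving out dim inputs 1 upstream, the deposited values 0 and 0, and a trend in limma's prior 0 ORF members. On 2 or more arrays, against 5 and 2 above and 2 ORF members below, loess gave 3 upstream and 0 below, the 1st percentile 0, 0 and 0, no dim inputs 3 upstream, deposited values 0, 0 and 0 (the rec8 ORF mean turned to 0.67), and centring on shared features and the trend 1 below each. For upstream minus ORF on all 3 arrays, 0 genes passed with the same letters or loess (spo14 alone tested) or with the 1st percentile (11 tested), and no value could be had without dim inputs. The binding list, with 3 members on all 3 arrays and 9 on 2 or more, held 9 of 43 tested with the 1st percentile, 2 with deposited values on 2 or more arrays, and 1 and 5 when every measuring array had to reach the 85th percentile. Leaving out 1 replicate gave 0 (without replicate 1) to 4 (without replicate 2) upstream members above, 0 to 1 below, 0 to 2 ORF members above and 0 below, 0 to 1 genes with the upstream feature higher, and 1 to 9 members on the binding list. The member medians minus the other upstream medians were -0.25 with deposited values and -0.17 in print batch F060D; for ORF members the batch gave -0.0345. The cause of these changes was not tested, except that leaving out arrays or dim inputs also changes how many features are tested. Of the 9 single features that passed, the call was kept by 8 with centring on shared features, 7 with the trend, 5 with loess and 0 with the 1st percentile. With the 1st percentile mei3 upstream passed among features on all 3 arrays, and with the trend the mei3 ORF passed among features on 2 or more. Without dim inputs the call was kept by all 6 that could be tested, with no such test for mei3 and meu31 upstream. Nor was there one for spo14 upstream, which was left with 2 arrays and passed among features on 2 or more. No paired comparison of groups was possible because there is a single group of arrays.

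Limits: the direction of the ratios, that of replicate 3 against the others included, and the ends of the PCR products are not settled. Few members were measured on replicate 2. No untagged control was analysed here, and neighbouring genes of a divergent gap cannot be told apart.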
